A study of Mus musculus with 4 samples.

Results

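The keratin and desmosome genes were followed in mouse morulae through 10 genes, taken by symbol from the 24411 genes listed in each file. They are the keratins Krt7, Krt8, Krt18 and Krt19 and the desmosome genes Dsp, Dsg2, Dsc2, Jup, Pkp2 and Ppl, and all 10 passed the filter on low counts. Embryos of the ICR strain were made by in vitro fertilization, electroporated at 3 hpi, at the 1-cell stage, with control siRNA (siControl) or with siRNA against Pwp1 (siPwp1), and grown in KSOM with bovine serum albumin to the morula at 72 hpi. Each group has 2 libraries, numbered 1 and 2 in the titles, each made from the polyadenylated RNA of 10 pooled embryos. The labels say that the experiments were done in duplicate and not what a number stands for, so the p-values here reflect just how these libraries vary, which may be technical.

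Keratins are the intermediate filament proteins of epithelia and assemble from an acidic type I and a basic type II chain. Keratin 8 (type II) and keratin 18 (type I) are the pair of simple epithelia. In the mouse embryo they are known as early products of the trophectoderm. This outer epithelium forms from outer cells of the morula and contributes to the placenta. Desmosomes anchor these filaments at cell contacts: the cadherins desmoglein and desmocollin bridge the cells, plakoglobin and plakophilin bind their tails, and desmoplakin ties the complex to keratin.

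The libraries held between 28981358 and 48765229 expected counts and between 15149 and 15976 genes with a count above 0. Pwp1, the targeted gene, had CPM values of 215.3 and 364.8 in siControl and of 36.9 and 37.2 in siPwp1, a log2 fold change of -2.97 that DESeq2 called (adjusted p = 1.47e-12) and edgeR did not (adjusted p = 0.22). The 8 morula markers (Pou5f1, Nanog, Sox2, Tead4, Tfap2c, Cdx2, Gata3 and Cdh1) were detected in every library. Sox2 had few counts in number 2, with 235 and 9 in siControl numbers 1 and 2 and 37 and 7 in siPwp1. By number DESeq2 called 3 of the 8 lower (Cdx2, Gata3 and Sox2) and 0 higher, and edgeR called 0. Sox2 passed the filter on low counts through the libraries numbered 1 alone, so its difference by number was bound to follow. DESeq2 called 3.42% of all genes lower by number and 5.77% higher. The correlation of log2 CPM, taken across genes and so not over independent replicates, was 0.933 within siControl, 0.936 within siPwp1, 0.946 within number 1 and 0.947 within number 2. The lowest correlation, 0.905, was between siControl number 1 and siPwp1 number 2. The highest, 0.9473, was between siControl number 2 and siPwp1 number 1, which share neither group nor number. Of 10 skin markers measured, which include epidermal keratins, Krt5, Krt1, Ivl and Dsg1a were at 0 in all libraries, and the summed level was 7.39 and 12.5 TPM in siControl and 8.79 and 9.42 TPM in siPwp1, nearly all of it Krt10. The 9 cumulus and granulosa markers summed to between 0.03 and 0.16 TPM, with Ptx3, Inhba and Cyp19a1 at 0. The 7 blood markers summed to 38.6, 117.0, 145.5 and 154.2 TPM in siControl 1 and 2 and siPwp1 1 and 2, mostly Hba-a2, with Hbb-bs and Hbb-bt at 0, and the 6 fibroblast markers to between 0.74 and 1.06 TPM, with Col3a1, Dcn and Lum at 0.

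Krt8 lies on chromosome 15 from 101996698 to 102004482 on the minus strand (GRCm38), and Krt18 from 102028180 to 102032027 on the plus strand, 23.7 kb away and pointing the other way. Krt7 is on the same chromosome (101411043 to 101430313, plus strand). Krt19 (100140810 to 100148665) and Jup (100368958 to 100397763) are on the minus strand of chromosome 11. Dsp is on chromosome 13 (38151294 to 38198577, plus strand). Ppl (5086291 to 5132421, minus strand) and Pkp2 (16213318 to 16272712, plus strand) are on chromosome 16. All 10 are protein-coding. Krt7, Krt8, Dsp and Dsg2 overlap predicted genes on the other strand that are not among the genes listed in the files, so reads from those could not be told apart without strand information.

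Promoter sequence of Krt8 and Krt18 is shown because these neighbours differed together between libraries, and that of Jup because, of the members, it differed least between the libraries of a group. The stretches lie within the 250 bases before the RefSeq start (GRCm38.p6), leave out any base in a GENCODE exon of the gene, and are written in the direction of the gene. They cover chr15:102004483-102004592 (minus strand) for Krt8, chr15:102027966-102028179 (plus strand) for Krt18 and chr11:100397791-100398040 (minus strand) for Jup. Capitals mark an AP-2 match in Krt18 and GC box matches in Jup.
Krt8: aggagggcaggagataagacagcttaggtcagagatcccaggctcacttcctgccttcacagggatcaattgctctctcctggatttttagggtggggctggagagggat
Krt18: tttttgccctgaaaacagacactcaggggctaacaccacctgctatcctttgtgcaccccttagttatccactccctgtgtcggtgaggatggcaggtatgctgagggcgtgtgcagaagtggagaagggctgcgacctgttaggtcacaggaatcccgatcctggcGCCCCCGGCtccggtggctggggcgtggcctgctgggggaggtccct
Jup: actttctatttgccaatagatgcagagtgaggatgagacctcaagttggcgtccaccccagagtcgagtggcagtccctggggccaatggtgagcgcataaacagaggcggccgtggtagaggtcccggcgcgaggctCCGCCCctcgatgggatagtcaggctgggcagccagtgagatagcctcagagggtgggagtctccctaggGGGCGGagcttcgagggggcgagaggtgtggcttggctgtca

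Both strands of these 250-base windows were searched for 4 motifs, in the 5 members with a RefSeq promoter entry (Krt7, Krt8, Krt18, Dsp and Jup). The AP-2 motif GCCNNNGGC, present in 13.7% of 32851 promoter windows, was found once in Krt18, beginning 83 bases before the start, once in Dsp and at 2 places in Krt7. The GC box GGGCGG, present in 32.7% of windows, was found at 4 places each in Dsp and Krt7 and 2 in Jup. In Dsp and in Krt7 a GC box overlapped an AP-2 match. All the Krt7 matches lay in bases that GENCODE gives as an exon of Krt7, downstream of the first start of the gene. The TEAD motif GGAATG (12.6% of windows) and the TATA box TATAAA (12.4%) matched in 0 of the 5 windows. These matches are letters in a window and were not measured as binding sites.

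Krt18 and Krt8 were by far the most abundant members. On the TPM scale, which accounts for gene length, the order of mean level over the 4 libraries was Krt18 (91.3 TPM), Krt8 (56.1), Pkp2 (6.77), Jup (3.06), Dsg2 (1.62), Dsp (1.47), Krt7 (1.295), Krt19 (0.695), Ppl (0.453) and Dsc2 (0.195). Krt18 was above Krt8, Krt8 above Pkp2 and Pkp2 above Jup in 4 of 4 libraries. Dsg2 and Dsp exchanged places between libraries, as did Dsp and Krt7, each being the higher in 2 of 4, and Krt7, Krt19 and Ppl had overlapping ranges. Their levels therefore have no stable order.

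**Figure D1:**
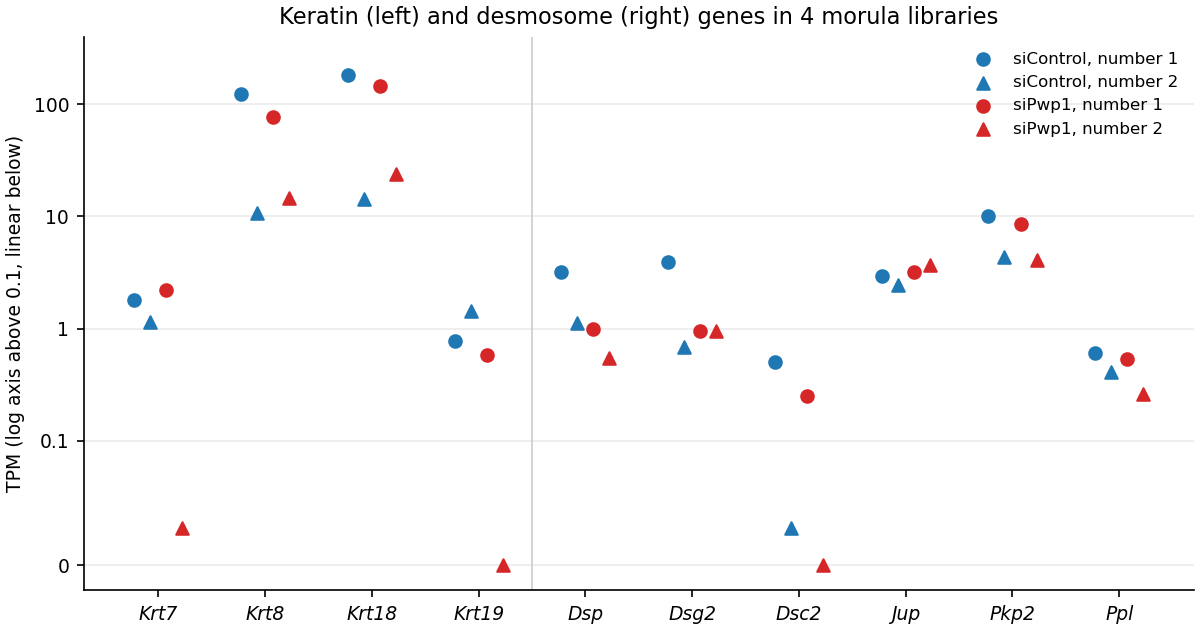
TPM of each member (vertical axis, logarithmic above 0.1 and linear below) in each library, with siControl in blue and siPwp1 in red, number 1 as circles and number 2 as triangles. For Krt8 and Krt18 the circles of both colours lie above both triangles, at 76.4 to 182.4 TPM against 10.7 to 23.8 TPM, whereas the 4 values of Jup lie between 2.44 and 3.65 TPM.

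Krt8, the type II keratin, stood at 122.7 TPM in siControl number 1 and 10.7 TPM in siControl number 2, and at 76.4 and 14.6 TPM in siPwp1 numbers 1 and 2. Krt18, its type I partner, stood at 182.4 and 14.4 TPM in siControl and at 144.7 and 23.8 TPM in siPwp1. For each gene the libraries numbered 1 were high and those numbered 2 were low in both groups, and the groups overlapped. The group values were 66.7 ± 79.2 TPM in siControl and 45.5 ± 43.7 TPM in siPwp1 for Krt8, and 98.4 ± 118.8 and 84.2 ± 85.5 TPM for Krt18 (SD, n = 2), so the SD was about as large as the mean or larger. In bulk RNA, fewer cells expressing a keratin and less keratin RNA per cell cannot be told apart.

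The ratio of Krt8 to Krt18 was much steadier than either gene. Within a library, Krt8 TPM divided by Krt18 TPM was 0.673 and 0.743 in siControl numbers 1 and 2 and 0.528 and 0.613 in siPwp1 numbers 1 and 2. Over the same libraries Krt8 itself ranged from 10.7 to 122.7 TPM. Both siPwp1 ratios lay below both siControl ratios, a split for which p = 0.333 is the smallest an exact permutation test can give with 2 libraries a group. With Krt7 added to the type II side and Krt19 to the type I side, the ratio of type II to type I was 0.68 and 0.749 in siControl and 0.541 and 0.614 in siPwp1. Krt8 and Krt18 made up 90.7% to 99.9% of the member keratin TPM in a library, so this ratio largely repeats that of Krt8 to Krt18.

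The other member keratins had few counts, and siPwp1 number 2 had 1 or 0. Krt7, a type II keratin of simple and glandular epithelia, had expected counts of 70 and 63 in siControl and 145 and 1 in siPwp1, or 1.80, 1.15, 2.20 and 0.03 TPM. The single count in siPwp1 number 2 set it 86.4-fold below siPwp1 number 1, with a 95% counting interval of 15.3 to 3437 (exact binomial). Krt19, a type I keratin that lacks most of the tail domain, had counts of 25 and 66 in siControl and 32 and 0 in siPwp1. Against the level of 3 counts, siPwp1 number 2 was at least 6.36-fold lower than siPwp1 number 1 for Krt19. Intervals and floors cover counting error only, and reads without molecular identifiers are not independent molecules.

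The desmosomal cadherin genes Dsc2 (20030633 to 20059554, minus strand) and Dsg2 (20558074 to 20604521, plus strand) are 499 kb apart on chromosome 18. Dsg2 (desmoglein 2, the desmoglein of simple epithelia) stood at 3.89 and 0.68 TPM in siControl and at 0.96 and 0.96 TPM in siPwp1. It was high in siControl number 1 alone, 6.16-fold above siControl number 2 and 4.16-fold above siPwp1 number 1 on the CPM scale. Dsc2 (desmocollin 2, its usual partner) had counts of 61 and 5 in siControl and 52 and 0 in siPwp1, or 0.50, 0.03, 0.25 and 0 TPM. Dsc2 was detected with more than 5 counts in the libraries numbered 1 only. It passed the filter on low counts through those libraries alone, so a difference by number was bound to follow. In siPwp1 the level in number 2 was at least 10.3-fold lower than in number 1.

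The plaque proteins behaved in separate ways. Dsp, the gene of desmoplakin, stood at 3.22 and 1.13 TPM in siControl and at 0.99 and 0.55 TPM in siPwp1, so that both siPwp1 libraries lay below both siControl libraries. Jup, the gene of plakoglobin, which also serves adherens junctions, stood at 2.94 and 2.44 TPM in siControl and at 3.21 and 3.65 TPM in siPwp1. Both siPwp1 libraries lay above both siControl libraries, within a narrow range. Pkp2, the gene of plakophilin 2, stood at 10.1 and 4.34 TPM in siControl and at 8.51 and 4.09 TPM in siPwp1, high in number 1 and low in number 2 of each group. Ppl, the gene of periplakin, a plakin that links cell contacts to keratin, stood at 0.60 and 0.41 TPM in siControl and at 0.54 and 0.26 TPM in siPwp1.

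The balance within the desmosome genes moved with these values. The ratio of Dsp to Jup on the TPM scale was 1.10 and 0.463 in siControl numbers 1 and 2 and 0.308 and 0.151 in siPwp1. The ratio of Pkp2 to Jup was 3.45 and 1.78 in siControl and 2.65 and 1.12 in siPwp1. Summed over the 4 keratins the level was 307.7, 27.7, 223.9 and 38.4 TPM in siControl 1, siControl 2, siPwp1 1 and siPwp1 2. Summed over the 6 desmosome genes it was 21.3, 9.03, 14.5 and 9.51 TPM. The keratin sum was thus 14.5 and 15.5 times the desmosome sum in the libraries numbered 1, and 3.07 and 4.03 times in those numbered 2.

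The comparison of siPwp1 with siControl asks whether these transcripts differ when Pwp1 is targeted. The quasi-likelihood test of edgeR called 0 of the 10 members (adjusted p = 0.9998 for each), where it called 0% of all 13585 genes higher and 0% lower. DESeq2 called 0 members as well, beside 0.309% of genes higher and 0.0147% lower. At unadjusted p under 0.05 edgeR had 1 member, Dsp, on the lower side, where 0.824% of all genes were lower and 1.84% higher. The median log2 fold change of the members was -0.49, beside -0.001 over all genes tested, with 9 members on the negative side and 1, Jup, on the positive side.

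Dsp had the smallest p, with a log2 fold change of -1.52 (SE 0.61), or 2.87-fold lower, an unadjusted p = 0.0428 and an edgeR adjusted p = 0.9998. Its CPM values were 30.5 and 9.96 in siControl and 9.14 and 4.88 in siPwp1, so siControl number 2 lay close to siPwp1 number 1. Dsg2 had a log2 fold change of -1.29 (SE 0.78), Krt8 of -0.59 (SE 1.11), Krt18 of -0.27 (SE 1.16) and Jup of 0.33 (SE 0.36). For Krt8 and Krt18 the standard errors were larger than the changes.

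Libraries did not overlap between groups for 3 members, Krt19 and Dsp lower and Jup higher in siPwp1. Over all genes tested this held for 14.1% on the lower side and 14.7% on the higher side. With a fold change of at least 2 as well, it held for Krt19 and Dsp on the lower side and 0 members on the higher side, beside 2.38% and 6.31% of all genes. For Krt19 the separation came with 1 library at 0.

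The outcome depended on which libraries were set against each other. At number 1, siPwp1 was below siControl by 0.73 on the log2 CPM scale (prior count 2) for Krt8 (-0.73) and by 0.38 for Krt18 (-0.38). At number 2 it was above, by 0.45 and 0.73. Dsg2 likewise went from -2.05 at number 1 to 0.51 at number 2, and Krt7 from 0.24 to -4.12, the last against a single count. Dsp was lower at both numbers (-1.73 and -1.02), as were Krt19, Dsc2, Pkp2 and Ppl, while Jup was higher at both (0.09 and 0.59).

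**Figure D2:**
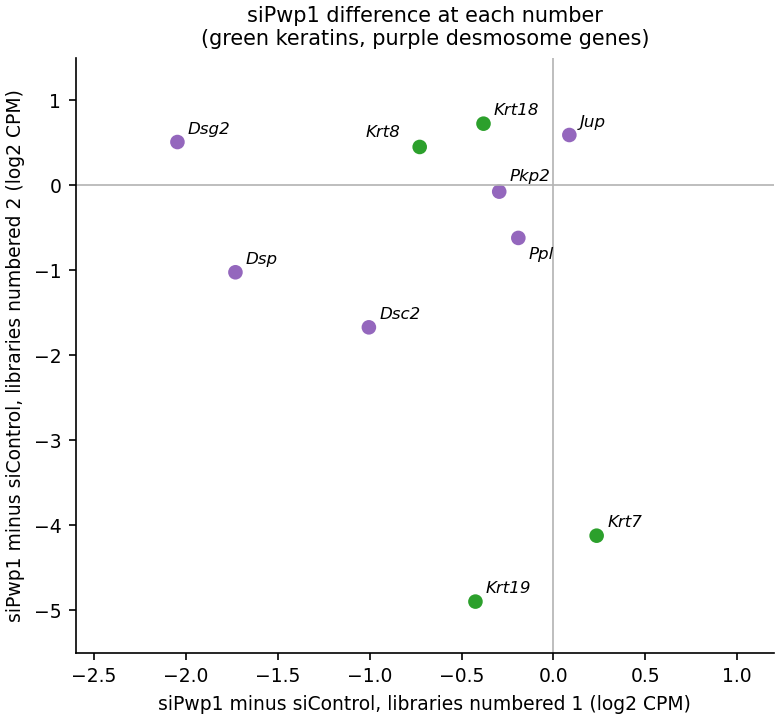
Difference of siPwp1 minus siControl in log2 CPM (prior count 2) for each member, among libraries numbered 1 (horizontal axis) and numbered 2 (vertical axis), with keratins in green and desmosome genes in purple. Krt8, Krt18 and Dsg2 lie left of 0 and above 0, so their differences have opposite signs, and Dsp lies below 0 on both axes at -1.73 and -1.02.

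Leaving out 1 library changed these calls. Without siControl number 1 the members' median turned to 0.54, with Krt8 at 2.15 and Krt18 at 2.61, and 0 members were called. Without siPwp1 number 2 the median was 0.14, with Krt8 at 0.17 and Krt18 at 0.52, and 0 members were called. Without siControl number 2 it was -1.28, and edgeR called Dsp (log2 fold change -2.11, adjusted p = 0.0331) and Dsg2 (-2.08, adjusted p = 0.0418) lower, among 142 of 13585 genes called (130 higher and 12 lower). Without siPwp1 number 1 it was -2.10, and edgeR called Krt8 (-2.29, adjusted p = 0.00747) and Krt18 (-2.15, adjusted p = 0.0136) lower, among 102 genes called (84 higher and 18 lower). These fits take the spread of the group left with 1 library from the group with 2, and adjusted p over all alternatives ran from 0.0331 to 0.9999 for Dsp.

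The comparison of the libraries numbered 2 with those numbered 1, across both groups, gave the clearest difference. edgeR called 2 of the 10 members, Krt8 and Krt18, both lower in number 2, where it called 0.0294% of all genes lower and 0.00736% higher. Krt8 was 8.39-fold lower, with a log2 fold change of -3.07 (SE 0.31) and an edgeR adjusted p = 0.0454. Krt18 was 9.12-fold lower, with a log2 fold change of -3.19 (SE 0.29) and an edgeR adjusted p = 0.039. On the CPM scale Krt8 fell from 192.6 to 15.6 in siControl and from 116.3 to 21.3 in siPwp1, and Krt18 from 211.3 to 15.4 and from 162.3 to 25.6.

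These falls were larger than the spread within a number. Krt8 stood at 154.5 ± 53.97 CPM in number 1 and 18.4 ± 4.07 CPM in number 2, and Krt18 at 186.8 ± 34.6 and 20.5 ± 7.18 CPM (SD, n = 2). Each SD is taken between the siControl and the siPwp1 library of a number, so it is not a spread of replicates of a treatment. In siControl the ratio of number 1 to number 2 was 12.4-fold for Krt8 and 13.7-fold for Krt18, and in siPwp1 it was 5.46-fold and 6.34-fold. The calls did not survive each omission, though their sizes did. Without siControl number 2, Krt8 was at -2.87 (adjusted p = 0.135) and Krt18 at -2.88 (adjusted p = 0.0663), and without siPwp1 number 2 Krt8 was at -3.31 (adjusted p = 0.0871). Without siPwp1 number 1, edgeR also called Dsp (-2.03, adjusted p = 0.022), Dsg2 (-2.34, adjusted p = 0.0107) and Pkp2 (adjusted p = 0.0473) lower, in a fit that called 948 of 13585 genes (612 higher and 336 lower).

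Only 5 of the 13585 genes were called by number, so Krt8 and Krt18 were 2 of the 4 on the lower side. The others, named after their values were seen, were Lrp2, the gene of the uptake receptor megalin (log2 fold change -1.84, 369.9, 97.8, 313.7 and 93.1 CPM in siControl 1 and 2 and siPwp1 1 and 2), and the RNA helicase gene Dhx16 (-1.90). On the higher side was Tgoln2, a gene of the trans-Golgi network, at 0 CPM in both libraries numbered 1 and at 10.6 and 11.1 CPM in those numbered 2. Tgoln2 passed the filter through the libraries numbered 2 alone, so its difference by number was bound to follow. It was the only gene behind the 0.00736% called higher. DESeq2 called 3 members lower, Krt8, Krt18 and Pkp2 (adjusted p = 0.00263), beside 3.42% of genes lower and 5.77% higher among those it gave an adjusted p.

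Among the 6 desmosome genes edgeR called 0 over all genes, and 5 of them, all but Jup, were lower in number 2 in both groups. Of these, Dsg2 differed by only -0.05 in siPwp1 (log2 CPM). Over all 13585 genes tested, 4605 were lower in both groups and 4427 higher in both. Pkp2, with CPM values of 27.1 and 10.8 in siControl and 22.1 and 10.2 in siPwp1, was 2.34-fold lower in number 2 (log2 fold change -1.23, SE 0.29, edgeR unadjusted p = 0.00375, adjusted p = 0.158). Dsg2 was at -1.65 (SE 0.65), Dsp at -1.41 (SE 0.61), Ppl at -0.83 (SE 0.52) and Jup at -0.10 (SE 0.33). Dsc2 was at -4.60 (SE 1.42), a value that rests on 5 and 0 counts in number 2. Krt7 was at -1.82 (SE 1.21) and Krt19 at 0.02 (SE 1.62). At unadjusted p under 0.05 there were 5 members on the lower side (Krt8, Krt18, Pkp2, Dsc2 and Dsg2) and 0 on the higher side, where 7.43% of all genes were lower and 9.22% higher. Without Dsc2, whose difference followed from the filter, there were 4.

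**Figure D3:**
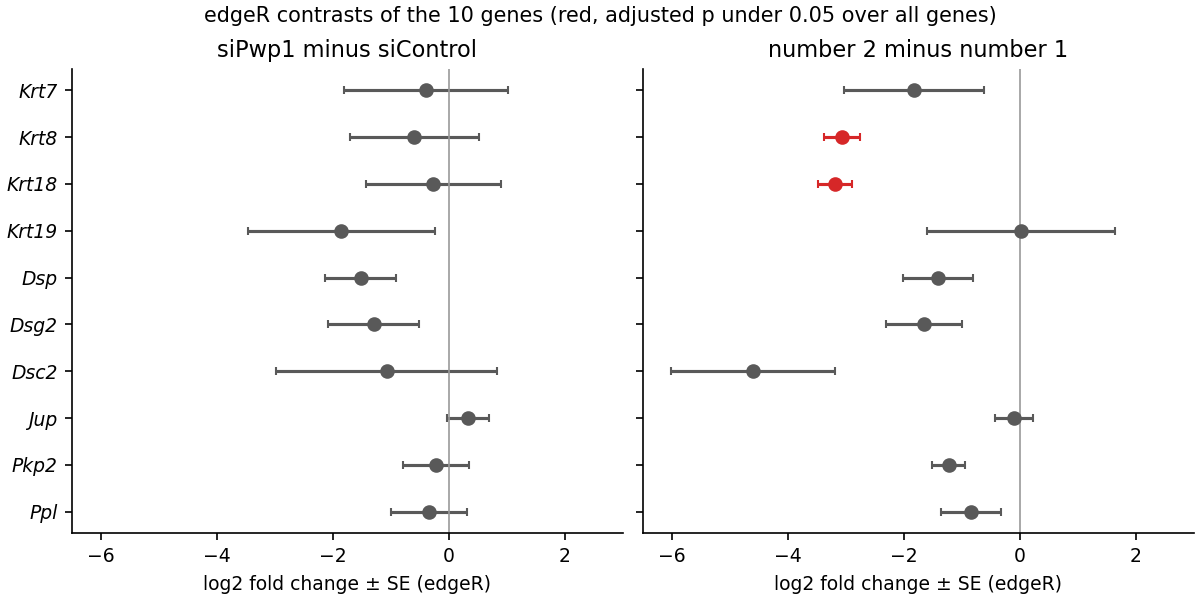
Log2 fold change with its SE (edgeR, horizontal axis) of each member for siPwp1 minus siControl on the left and for number 2 minus number 1 on the right, with red marking an adjusted p under 0.05 over all genes tested. On the left the bars of Krt8 and Krt18 span 0, and on the right both lie near -3 with SEs of 0.31 and 0.29.

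Libraries did not overlap between numbers for 7 members (Krt7, Krt8, Krt18, Dsg2, Dsc2, Pkp2 and Ppl), all lower in number 2, where this held for 25.7% of all genes on the lower side and 24.7% on the higher side. With a fold change of at least 2 as well, it held for 6 members (not Ppl), beside 8.63% of all genes lower and 6.85% higher. Without Dsc2 these counts were 6 and 5. The median log2 fold change of the members was -1.53 (-1.41, the value of Dsp, without Dsc2), beside -0.01 over all genes tested. Within siControl alone the median difference was -1.47 and within siPwp1 alone -1.78, beside -0.02 in siControl and a value at 0 in siPwp1 over all genes. Without Dsc2 the members' medians were -1.33 in siControl and -1.11 in siPwp1, both the values of Pkp2. In 8 members number 2 was lower in both groups, the exceptions being Krt19 and Jup. Over all 13585 genes tested, 4605 were lower in both groups and 4427 higher in both. The 8 include Dsc2, and also Dsg2, which differed by only -0.05 in siPwp1. The gap between the libraries of a group, averaged over both groups, exceeded the gap between the libraries of a number in 7 of 10 members (Dsc2 among them), beside 51.3% of all genes. The median gap was 1.78 within a group and 0.93 within a number for the members, and 0.55 and 0.42 for all genes. Without Dsc2 the members' median gaps were 1.33 (the value of Dsg2) and 0.59 (that of Krt8).

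The genes whose pattern over the 4 libraries was most like that of Krt8 were sought among 6785 genes of at least 10 CPM, by the root-mean-square difference of centred log2 CPM. Krt18 was the second closest (0.18). The others of the 5 closest were Alox5ap (0.13), the gene of the activator of 5-lipoxygenase, Trim38 (0.36), the glutaredoxin gene Glrx (0.44) and Lrrfip1 (0.46). Alox5ap had CPM values of 37.9 and 2.82 in siControl and of 20.0 and 3.25 in siPwp1. Of the other members of at least 10 CPM, Pkp2 ranked 75 (0.94), Dsp 193 (1.09) and Jup 2342 (1.48). A ranking over 4 libraries rests on few points, and all genes share the same libraries.

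Dsp was nearest to another set: Gss, the gene of glutathione synthetase (0.18), E130012A19Rik (0.20), Lrp11 (0.21), the scaffold gene Akap12 (0.23) and the focal adhesion gene Tns3 (0.25). Gss had CPM values of 23.2 and 6.66 in siControl and of 6.71 and 4.58 in siPwp1, high in siControl number 1 alone as Dsp was. Among the members of at least 10 CPM, Pkp2 came closest to Dsp, at rank 359 (0.61), and Krt18 farthest, at rank 5925 (1.25).

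Of the 48 other keratins in the files, 22 were at 0 in all libraries and 8 passed the filter. Krt10, a type I keratin of the upper epidermis, was the most abundant at 7.25 and 11.3 TPM in siControl and 8.79 and 8.55 TPM in siPwp1. In siControl number 2 it was above Krt8, which stood at 10.7 TPM there. Krt1, the usual partner of Krt10, was at 0 throughout, and Krt10 overlaps a predicted gene on the other strand. Krt28 followed at 0.14, 1.99, 1.14 and 3.86 TPM in siControl 1 and 2 and siPwp1 1 and 2, and Krt23 at 0.51, 0, 0.68 and 1.29 TPM.

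edgeR called 0 of these 8 keratins in either comparison, and DESeq2 called 0 too. At unadjusted p under 0.05 there were 0. Their median log2 fold change was 1.16 for siPwp1 against siControl and 0.81 for number 2 against number 1, opposite in sign to the members. Apart from Krt10 they had few counts, such as 0 and 10 in siControl and 42 and 51 in siPwp1 for Krt25, so these medians are imprecise. Krt25 passed the filter through siPwp1 alone and Krt83 through the libraries numbered 1 alone. Their differences, by group for Krt25 and by number for Krt83, were bound to follow. Without Krt25 the median by group was 1.10 (the value of Krt83). Without Krt83 the median by number was 1.09 (the value of Krt12). Krt10 itself was at -0.10 (SE 0.36) by group and 0.22 (SE 0.31) by number. Krt8 and Krt18 together made up 96.3% of all keratin TPM in siControl number 1 and 93.5% in siPwp1 number 1, and 57.0% and 69.5% in siControl and siPwp1 number 2.

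Among the other desmosome genes Perp held most of the transcript. Of 12 listed, 2 (Dsg1a and Dsg4) were at 0 everywhere and 4 passed the filter, and edgeR called 0 in either comparison, with Perp (lower in number 2) at unadjusted p under 0.05 by number and 0 genes by group. At this threshold 7.43% of all genes tested were lower by number and 9.22% higher. DESeq2 called 0 of the 4. Perp, a membrane protein gene of desmosomes and a p53 target, stood at 43.1 and 37.1 TPM in siControl and at 48.4 and 29.7 TPM in siPwp1. This is above every desmosome member, Pkp2 included. Cdsn, the gene of corneodesmosin, averaged 1.99 TPM and Pkp3 0.298 TPM, and the epidermal cadherin genes Dsg1b, Dsg1c, Dsg3, Dsc1 and Dsc3 did not pass the filter.

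Genes that link or attend keratin filaments were measured in all 9 listed cases. The co-chaperone gene Dnajb6, whose product binds keratin 18, stood at 994.5 and 1145 TPM in siControl and 1254 and 1424 TPM in siPwp1. Sfn, the gene of the keratin-binding 14-3-3 sigma protein, stood at 334.9 and 462.0 TPM in siControl and 331.8 and 403.4 TPM in siPwp1, and the cytolinker Macf1 averaged 7.02 TPM. edgeR and DESeq2 called 0 of the 9 in either comparison. At unadjusted p under 0.05 there were 0 by group and 3 by number, Eppk1 (log2 fold change -2.18), Fam83h (-1.07) and Plec (-0.82), all lower in number 2. Over all genes tested, 7.43% were lower by number and 9.22% higher at this threshold. The medians of the 9 were -0.11 by group and -0.23 by number.

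Of 13 other intermediate filament genes that passed the filter, the lamin genes led, with Lmna at 10.9, Lmnb1 at 5.16 and Lmnb2 at 1.98 mean TPM. edgeR and DESeq2 called 0 in either comparison, with 1 gene higher and 1 lower by group and 1 higher by number at unadjusted p under 0.05. At this threshold 1.84% of all genes were higher and 0.824% lower by group, and 9.22% higher by number. The gene higher by group was Bfsp1, with counts of 0 and 0 in siControl and 32 and 22 in siPwp1. Bfsp1 passed the filter through siPwp1 alone, so its difference by group was bound to follow. The medians were 0.09 by group and -0.05 by number. Lmnb1 was at -1.13 (SE 0.40, edgeR unadjusted p = 0.0257, adjusted p = 0.9998) in siPwp1. Vim, the filament gene of mesenchyme, was between 0.80 and 1.24 TPM.

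Most other junction genes were lower in number 2 as well. Of the adherens junction genes 6 were on the negative side and 1 on the positive, and of the tight junction genes 10 and 3. Libraries did not overlap between numbers for 5 adherens genes lower and 1 higher, and for 7 tight junction genes lower and 1 higher. Over all genes tested this held for 25.7% lower and 24.7% higher. For 7 adherens junction genes the median log2 fold change by number was -0.56, with 0 called by edgeR or DESeq2 and 3 at unadjusted p under 0.05 on the lower side, Cdh1 (-0.78), Ctnna1 (-0.59) and Ctnnb1 (-0.56). For 13 tight junction genes it was -0.77 with 0 called by edgeR (1 higher and 4 lower at unadjusted p under 0.05), and the genes that DESeq2 called included Cldn6 (-1.78), lower, and F11r (1.03), higher. Over all genes tested, 7.43% were lower by number and 9.22% higher at unadjusted p under 0.05. DESeq2 called 3.42% lower and 5.77% higher among those it gave an adjusted p. Cldn7 and Cldn4, the most abundant tight junction genes, were at 0.02 and -0.24. The difference between these lists and the keratin and desmosome genes was not tested.

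**Figure D4:**
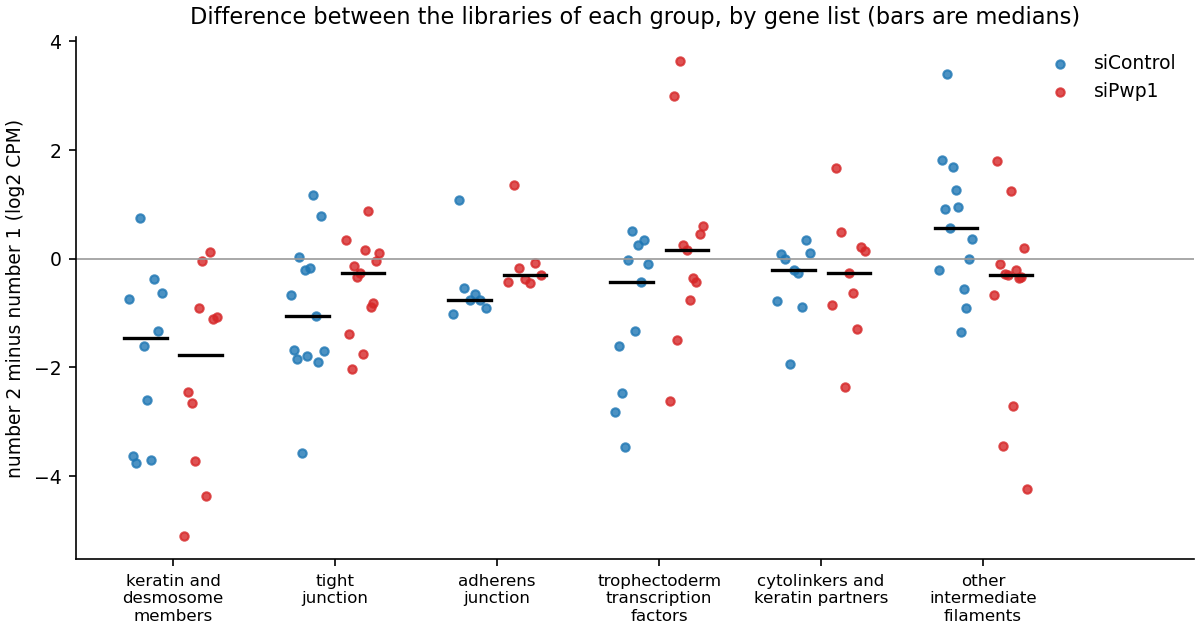
Difference of number 2 minus number 1 in log2 CPM (prior count 2, vertical axis) for every gene of each list that passed the filter, in siControl (blue) and siPwp1 (red), with black bars at the medians. The medians of the keratin and desmosome members are -1.47 and -1.78, or -1.33 and -1.11 without Dsc2. Those of the tight junction genes are -1.06 and -0.27, and those of the trophectoderm transcription factors -0.42 and 0.16.

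Trophectoderm transcription factors split by number. Cdx2 had CPM values of 15.4 and 2.14 in siControl and of 5.76 and 0.896 in siPwp1. Gata3 had 126.3 and 22.7 in siControl and 48.1 and 16.96 in siPwp1. Both were lower in number 2 by DESeq2 (adjusted p = 0.000666 and 1.0e-05) and not by edgeR (adjusted p = 0.153 and 0.132). Of all genes it gave an adjusted p, DESeq2 called 3.42% lower by number and 5.77% higher. Klf5, Tfap2c and Hand1, the most abundant of the list, were at -0.06, 0.12 and 0.21 by number. The median over the 11 that passed the filter was 0.12 by number and -0.26 by group, and edgeR called 0 in either comparison, with 2 at unadjusted p under 0.05 by number, both lower, and 0 by group. At this threshold 7.43% of all genes tested were lower by number and 9.22% higher. The part of these factors in the keratin difference was not tested.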

How the data were processed

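RNA-seq of 4 pooled-morula libraries was used. The authors deposited RSEM expected counts per gene, not normalized, and TPM, scaled to the same total in each library, per the file headers. STAR 2.7.10, RSEM 1.3.3 and mm10 are named in the submitters' processing notes, while the gene annotation was not given in the sources used here, nor was strandedness. RSEM divides reads that match several places, and a Krt8 pseudogene is not among the genes listed, so reads from it could count towards Krt8.

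Expected counts were rounded and tested with edgeR 4.0.16 (quasi-likelihood, TMM, filterByExpr with a minimum count of 10, 13585 genes, Benjamini-Hochberg over all of them, threshold 0.05, two-sided) in R 4.3.3, with group or library number as the single term. DESeq2 1.42.0 and limma 3.58.1 were alternatives. Standard errors were derived from each log2 fold change and its F statistic. CPM are scaled by TMM. A floor of 3 counts equals 0.0594 to 0.104 CPM. The tests were tried on simulated counts. Positions are from GENCODE M21 (GRCm38).

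The members and lists were chosen with earlier results of these data known. The rule named all members, Pwp1, the 3 genes of highest mean TPM in each list and the 5 genes most like Krt8 and Dsp, and further genes are given where a count needed them. A planned comparison of protein sequences was not made, and 1 gene of the tight junction list is not reported here by name.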

Additional observations from a re-analysis of the deposited data

Results flagged for a closer look

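In 2 members the libraries numbered 2 and 1 differed in opposite directions in the siRNA groups, and with 1 library at each number in a group the difference between the groups was not tested. For Krt19 the log2 CPM difference (prior count 2) was 0.76 in siControl and -3.72 in siPwp1, the latter against a count of 0 in siPwp1 number 2. For Jup it was -0.38 in siControl and 0.13 in siPwp1.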

How the results depend on the processing

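For siPwp1 against siControl, 0 members were called with every alternative that kept all 4 libraries, and leaving out 1 library gave 0 to 2. The members' median log2 fold change was -0.39 with 5 CPM in at least 2 libraries (6 members left), -0.14 with limma on log2(TPM + 1) or log2(TPM + 0.1) (6 members left) and -0.60 with the replicate block, and -2.10 to 0.54 with 1 library left out. Krt18 turned positive with limma (0.18 and 0.19) and with the replicate block (0.16). With 1 library left out, Krt7 ran from -5.71 to 0.58, Krt8 from -2.29 to 2.15, Krt18 from -2.15 to 2.61, Dsg2 from -2.08 to 0.54, Dsc2 from -8.25 to 2.17, Pkp2 from -0.89 to 0.59 and Ppl from -0.99 to 0.10. For number 2 against number 1, the members called were 6 with no filter, 4 with group as a further term (the other side of the replicate block; Krt8, Krt18, Pkp2 at adjusted p = 0.0318 and Dsp at 0.0454, edgeR), 0 with limma at either pseudocount and 0 to 5 with 1 library left out. The median was -0.99 and -1.75 with limma at pseudocounts of 1 and 0.1, and -2.45 to -0.90 with 1 library left out. Krt19 was at -1.54 with group as a further term, and ran from -7.78 to 1.0, and Jup from -0.43 to 0.16, with 1 library left out. Apart from what the fits change by construction, the cause of these shifts was not tested. Over all genes, siPwp1 against siControl gave 0 calls, 106 with no filter, 44 with DESeq2, 80 with the replicate block (Pwp1 among them, edgeR adjusted p = 0.000208) and 6 to 142 with 1 library left out. Number 2 against number 1 gave 5, and 1008, 934, 805 and 1 to 948 in the same order, 16 with 5 CPM in at least 2 libraries and 2 with limma. Libraries share only a number in the labels: deviations of same-numbered libraries from their group means correlated at 0.317 across genes tested, and with 2 pairs this does not establish pairing. Krt7, Krt19 and Dsc2 had 0 to 5 counts in at least 1 library, so their fold changes are imprecise. These counts were in siPwp1 number 2, and for Dsc2 in siControl number 2 as well. Those libraries held 30356988 and 44985949 expected counts in total, beside 28981358 in siControl number 1 and 48765229 in siPwp1 number 1.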
